A study of Homo sapiens with 6 samples.

Results

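Reelin is a large secreted glycoprotein, and the 4 genes described here are the ligand RELN, its lipoprotein receptors LRP8 (apolipoprotein E receptor 2) and VLDLR (very low density lipoprotein receptor), and DAB1, the cytoplasmic adaptor that carries the signal on. They were chosen by name from the 60676 genes listed, with their counts in these libraries already known, so their own values are given as a description with no p-value. The RNA came from HT29 cells, an established human colorectal adenocarcinoma line labelled as wild type, kept for 48 h in control medium (untreated), in medium without histidine (Hdepl) or in medium without tryptophan (Wdepl), with 2 libraries in each group. The question is how the ligand, the receptors and the adaptor respond to the loss of either amino acid, the tryptophan-free medium serving the study as a control for amino acid stress in general. By the study's methods the medium without histidine had an RPMI base and the one without tryptophan a DMEM F-12 base, both with dialyzed serum, while the base of the control medium for these libraries is not named, so the missing amino acid and the base medium cannot be told apart. The line is a single epithelial tumour line, and nothing in the labels says that the 2 libraries of a group came from separate cultures.

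Reelin is best known from the developing brain, where it leaves the secreting cell, binds LRP8 and VLDLR on migrating neurons and clusters them. The clustered receptors bring DAB1 to Src family kinases, which phosphorylate it, and phosphorylated DAB1 recruits Crk adaptors, phosphoinositide 3-kinase and the LIS1 dynein branch before it is degraded through a cullin ligase. In the gut, reelin is known from the cells beneath the epithelium, and loss of its expression by promoter methylation is known from several cancers.

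Between 46390819 and 64388876 reads on genes stood behind each library. Scaled reads below are reads per gene divided by a size factor set over all 6 libraries. As a check of the labelled cell type, the summed scaled reads of 10 colon epithelium markers ran from 375400 to 399500 in untreated, from 508400 to 534700 in Hdepl and from 547700 to 550000 in Wdepl libraries. Most of that sum came from the keratins KRT8, KRT18 and KRT20. Marker by marker, 4 of the 10 were higher and 6 lower in Hdepl than in untreated cells, and 6 were higher and 2 lower in Wdepl (limma, adjusted p under 0.05). Of all genes tested, 39.1% were higher and 38.2% lower in Hdepl by the same rule, and 36.1% and 34.8% in Wdepl. CEACAM5, an adhesion protein of colon epithelium, had 455 and 543 reads in untreated, 74 and 103 in Hdepl and 7452 and 8580 in Wdepl libraries. CDX1, an intestinal transcription factor, was at 19 or 20 reads in untreated libraries, at 0 in both Hdepl libraries and at 5 and 3 reads in Wdepl libraries. Replicates of a group differed by more than counting error, with a chi-square per degree of freedom of 8.77 for the untreated, 4.03 for the Hdepl and 1.85 for the Wdepl pair. P-values given below for other genes measure only the spread between these libraries.

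The ligand is described first. RELN (ENSG00000189056) lies on the minus strand at chr7:103471381-103989658 (GRCh38). The 250 bases before its start are shown because RELN went from nearly no reads to over 400 in a library and its promoter is the part of the locus that is known to be methylated in cancers. The run is RefSeq sequence of GRCh38.p14 on the strand of the gene, chr7:103989659-103989908, with GC boxes (GGGCGG, searched on both strands) and an E-box (CACGTG, the same on both strands) in capitals.
RELN upstream: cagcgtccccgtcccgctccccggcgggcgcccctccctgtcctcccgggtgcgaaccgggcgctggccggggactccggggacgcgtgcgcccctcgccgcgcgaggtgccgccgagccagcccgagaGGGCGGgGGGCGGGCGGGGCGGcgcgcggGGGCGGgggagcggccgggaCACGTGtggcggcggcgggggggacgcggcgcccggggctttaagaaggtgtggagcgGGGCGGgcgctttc

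This window holds 43 CpG dinucleotides and 83.2% G and C, against medians of 11 CpG and 58% over the 35116 RefSeq promoter windows of the same 250 bases, which places its CpG count at the 98.98 percentile. It has 6 GC boxes, some of which overlap, and 1 E-box. At least 1 GC box is present in 42.6% of all windows, and the E-box in 6.35%. None of 4 further motifs, searched on both strands, has its letters in this window: the CCAAT box (CCAAT), the TATA box (TATAAA), the ATF4 element (TGATGNAA) and the AP-1 site (TGANTCA), which are in 32.0%, 10.7%, 3.14% and 6.57% of all windows in that order. The windows of 250 bases before the RefSeq starts of the receptors held 31 CpG, 77.2% G and C and 3 GC boxes for LRP8 and 41 CpG, 78.8% and 2 GC boxes for VLDLR. Unlike the RELN window, both lie inside the GENCODE spans of their genes given below, which begin further upstream. These letter counts are a description of the reference sequence, and neither methylation nor factor binding was measured.

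RELN had 1 and 2 reads in the untreated libraries, 460 and 404 in the Hdepl libraries, and 1 and 0 in the Wdepl libraries. The untreated and Wdepl libraries were thus all under the floor of 3 reads used here as the limit of detection, and both Hdepl libraries lay far above it. Over the pooled reads of a group, scaled for library size, Hdepl held 266.3 times the untreated level (864 against 3 reads, exact 95% counting interval 90.8 to 1294). Against Wdepl the ratio was 839 (864 reads against 1, interval 150.2 to 33180). These intervals cover counting error only, and their width comes from the few reads on the low side. On the log2(normalized count + 1) scale of the limma fit the difference was 7.38 ± 0.279 (SE, n = 2 and 2) against untreated. That value depends on the count added before the logarithm, and it ran from 5.47 to 8.05 over the other settings tried. No fold is given for RELN between Wdepl and untreated, since both were under the floor.

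**Figure D1:**
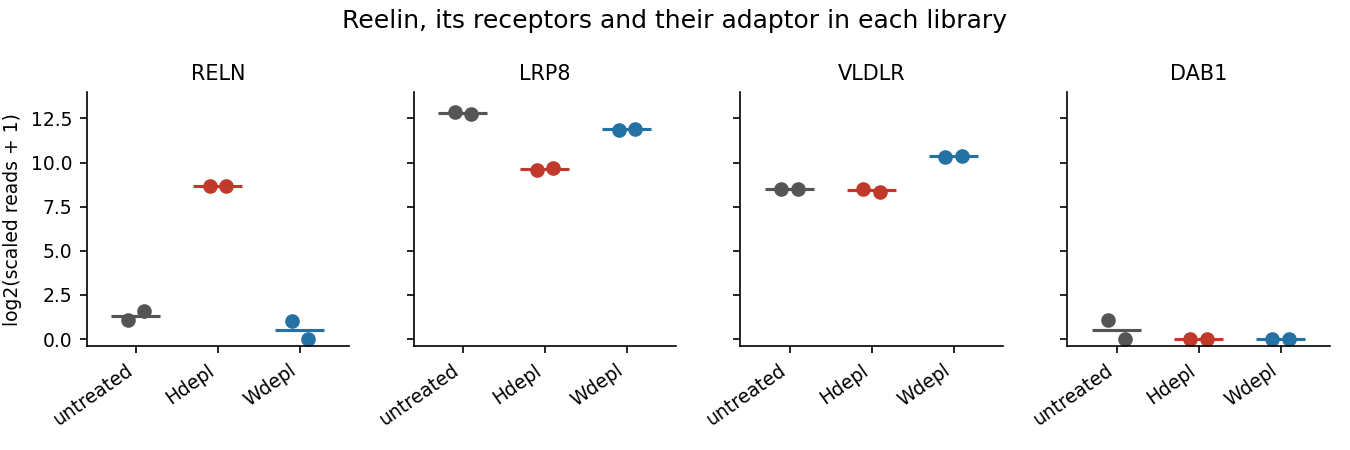
Reads scaled for library size over the 6 libraries, as log2(scaled reads + 1), for each gene and library (points), with the group mean as a bar. RELN stands near 0 in untreated and Wdepl libraries and at 415.6 and 411.1 scaled reads in Hdepl, LRP8 falls in both depletions, VLDLR stands apart in Wdepl, and DAB1 stays at the bottom of the scale.

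On this scale RELN had rank 5 among all genes called in Hdepl against untreated, ordered from the largest increase, and rank 4 among protein-coding genes. On a scale of reads per kilobase of exon and per 1000000 reads of the library, RELN reached 0.202 and 0.198 in the Hdepl libraries, which put it at the 42.0 and 41.8 percentile of protein-coding genes in those libraries. This level and percentile rest on the 35421 bases of all its annotated exons together. Over the 11708 bases of its canonical transcript, a length chosen after seeing the data, the level was 0.599 to 0.610. No exon base of RELN is shared with another annotated gene, so its reads have no annotated overlapping source.

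Other cells are known to make reelin, so their markers were counted in the same libraries. The 8 mast cell and leukocyte markers summed to at most 1.09 scaled reads in untreated, 4.07 in Hdepl and 3.201 in Wdepl libraries, with every marker at or under the floor in all 6. Of 10 myofibroblast and smooth muscle markers, COL1A2 and PDGFRA had 0 reads in all libraries and COL3A1 at most 1. The sum of that list ran from 1062 to 1070 in untreated, from 4408 to 4771 in Hdepl and from 3819 to 4254 in Wdepl libraries, and TAGLN alone supplied most of it, with 800 and 899 reads in untreated, 4732 and 4548 in Hdepl and 3445 and 4513 in Wdepl. ACTA2, smooth muscle actin, had 22 and 23 reads in untreated, 43 and 32 in Hdepl and 9 and 5 in Wdepl. Its log2 difference from untreated was 0.59 ± 0.280 in Hdepl, which was not called, and it fell by 1.67 ± 0.4245 in Wdepl. Other markers of that list were lower in Hdepl. COL1A1, a fibrillar collagen chain, had 61 and 70 reads in untreated, 30 and 35 in Hdepl and 48 and 67 in Wdepl, and fell by 1.10 ± 0.2335 in Hdepl. DES, the muscle filament protein desmin, was too low to be tested, with 9 and 7 reads, 0 in both and 1 in both. Of 8 neuron markers GAD2 and SNAP25 had 0 reads in all libraries and ELAVL4 at most 1. That list summed to 370.5 to 392.9 scaled reads in untreated, 957.5 to 969.5 in Hdepl and 598.6 to 683.1 in Wdepl, moved in Hdepl mainly by SYP, a synaptic vesicle protein (54 and 76, then 431 and 377 reads), and GAD1, which makes the transmitter GABA (189 and 194, then 516 and 456 reads). In Wdepl SYP fell, by 0.83 ± 0.2333 to 42 and 34 reads, and the rise of the sum came mainly from MAP2, a microtubule protein of dendrites, which had 77 and 109 reads in untreated, 77 and 78 in Hdepl and 334 and 470 in Wdepl. The 6 endothelial markers summed to 874.4 to 942.9, 927 to 982.9 and 611.7 to 661.6, most of it PROX1, with LYVE1 and CDH5 at no more than 1 read in any library. Within that list VWF, a clotting protein of endothelium, had 7 and 4 reads in untreated, 47 and 40 in Hdepl and 8 and 9 in Wdepl, and rose by 2.71 ± 0.3775 in Hdepl. FLT4, a growth factor receptor of lymphatic endothelium, had 5 and 7, 17 and 9, and 1 and 2 reads and was too low to be tested. VWF and FLT4, like RELN, were thus highest in the Hdepl libraries, whereas PECAM1 fell by 2.15 ± 0.3341 there. The part of any such change in the RELN result was not tested. In bulk RNA, a change in the number of cells that hold a transcript and a change in the amount per cell cannot be told apart.

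The receptor LRP8 moved the other way. LRP8 (ENSG00000157193, minus strand, chr1:53242364-53328469) had 7354 and 6883 scaled reads in untreated, 778.8 and 836.4 in Hdepl, and 3720 and 3827 in Wdepl libraries. The order from the highest was untreated, then Wdepl, then Hdepl. The log2 difference from untreated was -3.13 ± 0.0567 (SE) in Hdepl and -0.92 ± 0.0474 in Wdepl, each fitted within its own deposited table against the same untreated libraries. Hdepl lay -2.22 ± 0.0458 from Wdepl on a scale set over all libraries. LRP8 ranked 147 from the bottom among all genes called in Hdepl against untreated and 2089 in Wdepl.

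VLDLR (ENSG00000147852, plus strand, chr9:2621182-2660056) had 362.9 and 364 scaled reads in untreated, 358.7 and 327.6 in Hdepl, and 1278 and 1342 in Wdepl libraries. Here the tryptophan-depleted libraries stood apart, and the Hdepl libraries lay at or just below the untreated ones. The log2 difference was 1.84 ± 0.0727 (SE) in Wdepl and -0.08 ± 0.0962 in Hdepl, the latter smaller than its error and changing sign under quantile normalization. Directly compared, Hdepl lay -1.93 ± 0.0657 from Wdepl.

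DAB1 (ENSG00000173406, minus strand, chr1:56994778-58546734) had 1 read in untreated library 1 and 0 in the other 5 libraries, all under the floor. A count of 0 allows up to 3 reads, which over its 7551 exon bases is 0.00617 to 0.00781 on the scale of reads per kilobase and per 1000000 reads in these libraries. The adaptor through which reelin is known to signal was therefore not detectable at this depth in any group, including the Hdepl libraries in which the ligand was found. No fold is given for it.

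Counted against all genes tested, the members read as follows. In Hdepl against untreated, 39.1% of 18288 tested genes were called higher and 38.2% lower, and of the 3 members tested RELN was called higher, LRP8 lower and VLDLR neither. In Wdepl against untreated, 36.1% of 17960 genes were called higher and 34.8% lower, and of the 2 members tested VLDLR was higher and LRP8 lower. In Hdepl against Wdepl, 39.9% of 18276 genes were called higher and 38.4% lower, and of the 3 members tested RELN was higher and both receptors were lower. A call means an adjusted p under 0.05 in limma with Benjamini-Hochberg adjustment. With so many genes called, and with members chosen on these values, nothing is read from the counts.

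Levels can be set side by side between genes only per length. In untreated cells LRP8 stood at 7.03 ± 0.485 reads per kilobase of exon and per 1000000 reads (mean ± SD, n = 2) and VLDLR at 0.427 ± 0.00854. In Hdepl the values were 0.703 ± 0.0320 for LRP8, 0.356 ± 0.0245 for VLDLR and 0.200 ± 0.00254 for RELN. In Wdepl LRP8 was at 3.53 ± 0.0620 and VLDLR at 1.46 ± 0.0469. LRP8 was therefore above VLDLR in every library, but by very different margins. These levels use the union of all annotated exons. With the canonical length instead, RELN was at 0.599 to 0.610 and VLDLR at 0.607 to 0.669 in the Hdepl libraries, so that the ligand and this receptor overlapped, while LRP8 stayed above both.

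The ratio of VLDLR to LRP8 per exonic length was 0.0588 and 0.0630 in untreated, 0.549 and 0.467 in Hdepl and 0.410 and 0.418 in Wdepl libraries. The receptors were closer to equal levels in both depletions than in untreated cells. In Hdepl LRP8 was low and VLDLR near its untreated level, while in Wdepl VLDLR was high and LRP8 lay between its values in the other groups. With canonical lengths all ratios were lower, at 0.0427, 0.356 and 0.290 on average for untreated, Hdepl and Wdepl, in the same order.

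**Figure D2:**
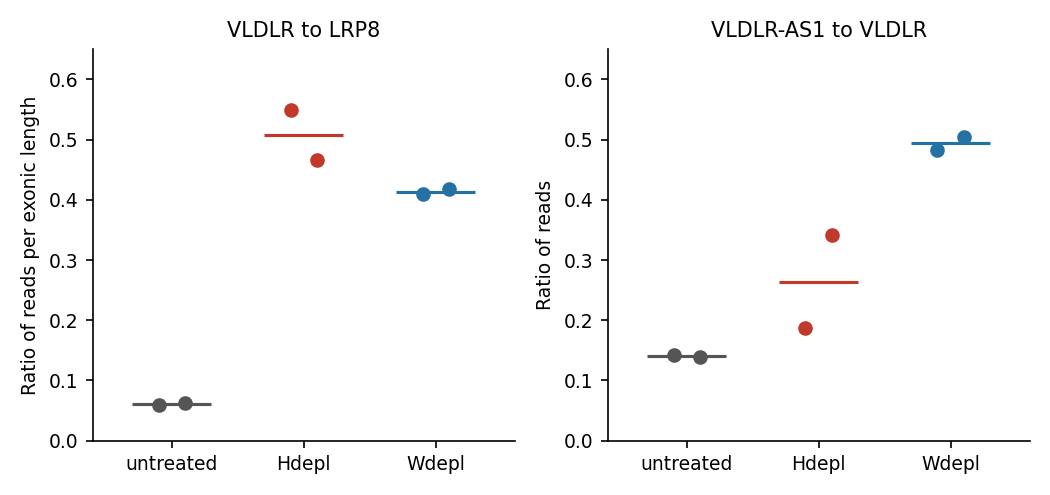
Left, VLDLR to LRP8 ratio of reads per exonic length in each library (points) with the group mean (bar). Right, ratio of VLDLR-AS1 to VLDLR reads. The receptor ratio is 0.0588 and 0.0630 in untreated libraries and at least 0.410 in every depleted one, and the antisense ratio is highest in Wdepl at 0.483 and 0.504.

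Both receptor genes have a named neighbour transcribed from the opposite strand near their start. VLDLR-AS1 (chr9:2421597-2622457, minus strand) had 51.4 and 50.7 scaled reads in untreated, 66.9 and 111.9 in Hdepl and 617.8 and 676.7 in Wdepl libraries. Like VLDLR it was highest in Wdepl, with a log2 difference of 3.63 ± 0.128 (SE, limma adjusted p = 7.0e-58), rank 50 among all genes called in that comparison. Relative to VLDLR reads it went from 0.142 and 0.139 in untreated to 0.483 and 0.504 in Wdepl, with 0.186 and 0.342 in Hdepl. In Hdepl its log2 difference of 0.76 ± 0.221 (adjusted p = 0.0034) rested on the second library, without which it was 0.395 with an adjusted p of 0.187.

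LRP8-DT, a divergent transcript at chr1:53328233-53336509 on the plus strand, had 38.3 and 27.9 scaled reads in untreated, 3.61 and 4.07 in Hdepl and 26.7 and 20.1 in Wdepl libraries. As with LRP8, Hdepl held the lowest values. Its log2 difference was -2.79 ± 0.410 in Hdepl (adjusted p = 1.3e-06) and -0.48 ± 0.303 in Wdepl (adjusted p = 0.15), both from limma with Benjamini-Hochberg adjustment. The libraries came from a stranded kit, but whether strand was used in counting is not stated. Without strand, reads of genes on opposite strands cannot be told apart where their exons overlap. VLDLR and VLDLR-AS1 share 260 exon bases, which are 4.18% of those of VLDLR-AS1. LRP8 and LRP8-DT share 143, which are 25.2% of those of LRP8-DT. Over all annotated genes on the other strand, the named partner among them, the overlap is 8.24% of the exon bases of VLDLR and 9.69% of those of LRP8.

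The neighbours of RELN on the chromosome are described next. Within 1000000 bases of RELN lie 26 other protein-coding genes, of which 18 were tested. In Hdepl against untreated 5 were called higher, 8 lower and 5 neither, with a median log2 difference of -0.26 against 0.01 for all tested genes, of which 39.1% were higher and 38.2% lower. In Wdepl the counts were 5, 7 and 6, with a median of -0.09 against 0.01, beside 36.1% higher and 34.8% lower over all genes. The 18 values in Hdepl ran from -1.77 for FAM185A to 1.41 for DNAJC2, both named after their values were seen. RELN was chosen with its value known, so its distance from them is a description. Whether the locus moved as a block was not tested.

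The nearest gene downstream, SLC26A5 (prestin, the motor protein of outer hair cells), lies 25.2 kb from RELN and had 4.37 and 5.97 scaled reads in untreated, 3.61 and 5.09 in Hdepl and 9.60 and 10.99 in Wdepl, too few to be tested. PSMC2, a proteasome ATPase 101 kb away, rose in Hdepl by 0.99 ± 0.0489 and in Wdepl by 0.33 ± 0.0470. Upstream, ORC5, a subunit of the origin recognition complex 136.7 kb away, was at -0.23 ± 0.0601 in Hdepl and -0.15 ± 0.0573 in Wdepl. LHFPL3, a membrane protein gene 338.9 kb upstream, fell short of the filter, with 7.65 and 19.9 scaled reads in untreated and 1.81 and 0 in Hdepl. Several of the farther neighbours, such as RASA4 and RASA4B or the 2 genes named POLR2J3, are near-identical copies whose reads could be split in counting.

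**Figure D3:**
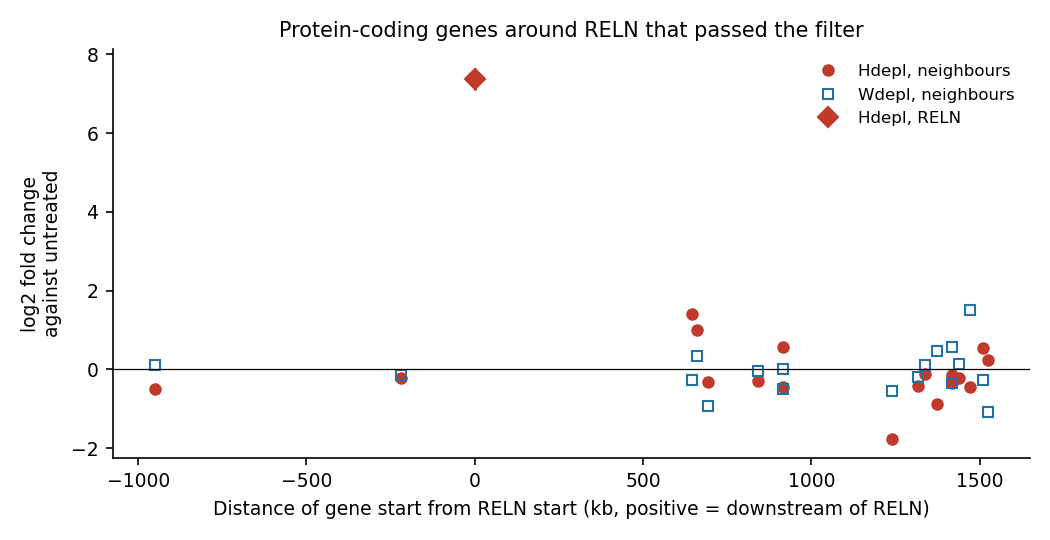
Log2 fold change against untreated of the tested protein-coding genes around RELN (y) by the distance of their start from the RELN start in kb (x, positive in the direction of RELN transcription), filled circles for Hdepl and open squares for Wdepl, with RELN in Hdepl as a diamond with its SE. RELN stands at 7.38 and the neighbours in Hdepl between -1.77 and 1.41.

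The rest of the pathway was described through 10 lists with 86 genes around reelin signalling. In Hdepl 70 of the 86 were tested, of which 36 were called higher, 30 lower and 4 neither, with a median log2 difference of 0.18 against 0.01 for all tested genes. In Wdepl 71 were tested, of which 37 were higher, 24 lower and 10 neither, with a median of 0.16 against 0.01. Directly compared, 32 of 69 were higher in Hdepl and 31 lower. These counts, and those of each list below, stand beside 39.1% higher and 38.2% lower over all tested genes in Hdepl, 36.1% and 34.8% in Wdepl and 39.9% and 38.4% in Hdepl against Wdepl, and nothing particular to a list is read from them. In the lists below, rose and fell mean called higher and lower by limma, and errors are SE. The comparisons with untreated share the untreated libraries, so their values stand side by side only.

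Of 6 other ligands and modulators outside the cell, 4 rose and 2 fell in Hdepl, while 3 rose, 1 fell and 2 were neither in Wdepl. THBS1, the matrix protein thrombospondin-1, which binds both reelin receptors, went from 995.7 and 1020 scaled reads to 14290 and 13060 in Hdepl and to 1740 and 2000 in Wdepl. The log2 differences were 3.77 ± 0.0545 and 0.88 ± 0.0596. APOE, the apolipoprotein carried by receptors of this family, rose by 1.97 ± 0.183 in Hdepl and by 0.90 ± 0.222 in Wdepl. The further members that rose in Hdepl were CLU, an apolipoprotein that binds both receptors, by 1.32 ± 0.0635, and SPON1, an extracellular ligand of LRP8, by 1.60 ± 0.156. LRPAP1, a chaperone of these receptors, fell by 0.31 ± 0.0521 in Hdepl and rose by 0.23 ± 0.0477 in Wdepl.

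Proteases known to cut reelin were hardly found. Of 8, FURIN alone passed the filter in Hdepl, and ADAMTS3, a protease that inactivates reelin, had at most 1 read in any library, ADAMTS5 had 0 in all, and ADAMTS2 and ADAMTS4 had at most 3. FURIN, a proprotein convertase, rose by 0.95 ± 0.0503 in Hdepl and by 1.28 ± 0.0466 in Wdepl. PLAT, tissue plasminogen activator, was the further one tested in Wdepl, at 0.03 ± 0.425.

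Among related lipoprotein receptors, LRP1, LRP5, LRP6 and SORL1 fell in Hdepl, and in Wdepl LRP1 rose, SORL1 fell and LRP5 and LRP6 were neither. LRP1, a large endocytic receptor, had 8872 and 10120 in untreated, 2177 and 2609 in Hdepl and 20530 and 19170 in Wdepl, so that it was lower in Hdepl by a log2 difference of -1.98 ± 0.0682 and higher in Wdepl by 1.06 ± 0.0489. On the same per-length scale, LRP1 stood at 1.96 ± 0.241 in Hdepl, above LRP8 at 0.703 ± 0.0320 and VLDLR at 0.356 ± 0.0245 in the same cells.

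Of 8 other surface partners of reelin, 6 were tested, and EFNB3 and CDH2 were too low. In Hdepl 4 rose, and EFNB1 and APP fell. In Wdepl all 6 rose. The integrin pair ITGA3 and ITGB1, which can bind reelin, rose in Hdepl by 1.20 ± 0.0509 and 0.58 ± 0.0574 and in Wdepl by 1.25 ± 0.0489 and 0.57 ± 0.0545. EFNB2, an ephrin B ligand, rose by 1.94 ± 0.0574 in Hdepl and 0.26 ± 0.0632 in Wdepl, whereas EFNB1 was at -1.32 ± 0.0563 in Hdepl and 0.40 ± 0.0478 in Wdepl. Of the exon bases of EFNB2, 36.4% are also annotated to a gene transcribed in the other direction.

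**Figure D4:**
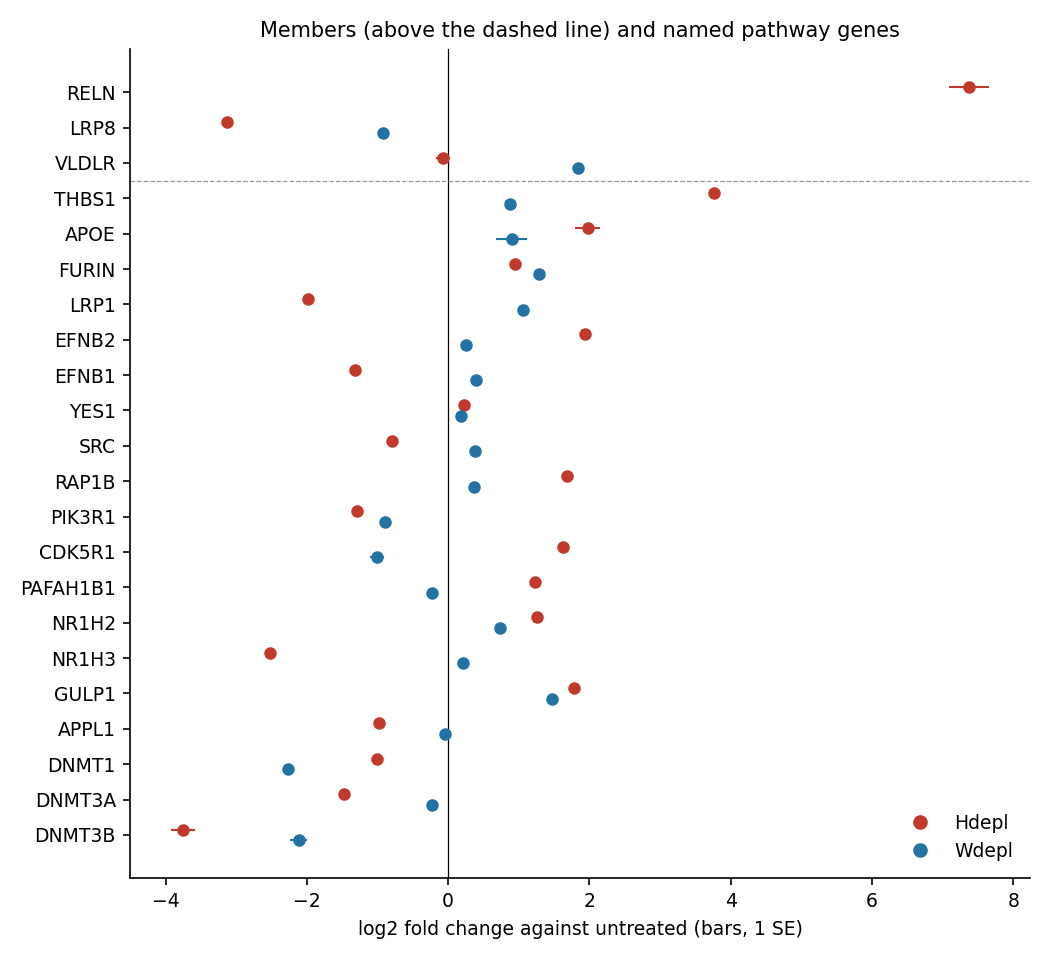
Log2 fold change against untreated (x, bars 1 SE) of the members that were tested and of named pathway genes (y), in red for Hdepl and in blue for Wdepl. RELN at 7.38 lies beyond every named pathway gene, the nearest being THBS1 at 3.77, and DNMT3B at -3.75 is the lowest.

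Inside the cell, the Src family kinases that phosphorylate DAB1 were all present, and DAB1 was not detected. SRC had 12290 and 13070 scaled reads in untreated, 7055 and 7481 in Hdepl and 16570 and 16540 in Wdepl, with log2 differences of -0.79 ± 0.0519 and 0.38 ± 0.0477. YES1 was at 0.22 ± 0.0516 in Hdepl and 0.18 ± 0.0476 in Wdepl, and its direction in Hdepl turned under quantile normalization. FYN, the kinase best known for acting on DAB1 in neurons, fell in both, by 0.20 ± 0.0541 and by 0.52 ± 0.0517.

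Of 18 adaptors and effectors known to act downstream of DAB1, 16 were tested. In Hdepl 8 rose, 7 fell and 1 was neither, and in Wdepl 9 rose, 5 fell and 2 were neither. RAP1B, a small GTPase of the Crk branch, rose by 1.68 ± 0.0526 in Hdepl and by 0.37 ± 0.0484 in Wdepl. PIK3R1, the regulatory subunit of phosphoinositide 3-kinase, fell in both, by 1.28 ± 0.0519 and by 0.89 ± 0.0474. CFL1, the actin-severing cofilin, rose by 0.65 ± 0.0603 in Hdepl and fell by 0.81 ± 0.0531 in Wdepl.

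In the dynein and CDK5 branch, 4 of 8 genes rose and 4 fell in Hdepl, while 1 rose, 6 fell and 1 was neither in Wdepl. CDK5R1, the p35 activator of the kinase CDK5, had 517 and 490.3 scaled reads in untreated, 1561 and 1531 in Hdepl and 250.8 and 251.8 in Wdepl. PAFAH1B1, which encodes LIS1, rose by 1.23 ± 0.0505 in Hdepl and fell by 0.23 ± 0.0467 in Wdepl. Among the 4 that fell in Hdepl were CDK5 itself, at -1.09 ± 0.0662, and PAFAH1B3, at -1.095 ± 0.0628. In Wdepl CDK5 was not called, at -0.08 ± 0.0578, and PAFAH1B3 was at -1.37 ± 0.0567. The direct differences between the depletions were 2.62 ± 0.0599 for CDK5R1 and 1.45 ± 0.0258 for PAFAH1B1.

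Of 9 genes that set the turnover of the receptors and of DAB1, 7 rose and 2 fell in Hdepl, and 6 rose, 2 fell and 1 was neither in Wdepl. MYLIP, the ubiquitin ligase that marks VLDLR and LRP8 for degradation and is induced by liver X receptors, rose by 1.23 ± 0.0629 in Hdepl and by 0.48 ± 0.0654 in Wdepl. The liver X receptors themselves parted in Hdepl only. NR1H3 had 2490 and 2698 scaled reads in untreated, 421 and 473.1 in Hdepl and 3024 and 2997 in Wdepl. It fell in Hdepl, at -2.53 ± 0.070, and rose in Wdepl, at 0.21 ± 0.051. NR1H2 rose in both, by 1.26 ± 0.0568 and 0.73 ± 0.0515. Of the exon bases of NR1H2, 22.1% are also annotated to a gene transcribed in the other direction, and 4.17% of those of NR1H3.

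With DAB1 under the floor, 7 related adaptors with the same kind of phosphotyrosine-binding domain were followed, and all were tested. In each depletion 4 rose and 2 fell. GULP1, an engulfment adaptor, rose by 1.78 ± 0.0752 in Hdepl and by 1.48 ± 0.0614 in Wdepl. DAB2, the closest relative of DAB1, was at 0.22 ± 0.0703 in Hdepl and -0.37 ± 0.0710 in Wdepl. APPL1, an endosomal adaptor, was at -0.98 ± 0.0563 and -0.05 ± 0.0501, the last without passing the threshold.

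Finally, DNA methylation enzymes and transcription factors linked to RELN were followed, since RELN is known as a gene that methylation can silence. Of 8 tested, 2 rose, 5 fell and 1 was neither in Hdepl, and 3 rose and 5 fell in Wdepl. DNMT3B, a de novo DNA methyltransferase, had 458 and 439.6 scaled reads in untreated, 26.2 and 39.7 in Hdepl and 117.4 and 90.7 in Wdepl. DNMT3A, the other de novo enzyme, fell by 1.48 ± 0.0662 in Hdepl and by 0.23 ± 0.0538 in Wdepl. DNMT1, the maintenance enzyme, was lowest in Wdepl, with 7550 and 7734 scaled reads in untreated, 3764 and 3792 in Hdepl and 1495 and 1688 in Wdepl. All 3 methyltransferases were called lower in both depletions.

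The 3 TET enzymes, which oxidize methylated cytosine, differed in direction. TET1 had 47 reads in each untreated library, 10 and 8 in Hdepl and 2 and 12 in Wdepl, and fell by 2.38 ± 0.320 and by 3.03 ± 0.394. TET2 rose by 0.25 ± 0.0579 in Hdepl and fell by 0.30 ± 0.0580 in Wdepl. TET3 rose by 1.46 ± 0.0537 in Hdepl and by 0.16 ± 0.0473 in Wdepl. SP1, which binds GC boxes such as those in the RELN window, was at 0.06 ± 0.0493 in Hdepl and rose by 0.39 ± 0.0470 in Wdepl. TBR1, a neuronal transcription factor that activates RELN, was too low to be tested, and it is named after its values were seen. It had 0 and 4 reads in untreated, 23 and 15 in Hdepl and 0 and 2 in Wdepl, and its part in the RELN result was not tested.

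The genes whose pattern over the 6 libraries was most like that of each member were found by Euclidean distance between centred log2(scaled reads + 1) values among 13180 protein-coding genes. For RELN these were MARCHF4, TMEM71, IL7R, CD274 and PLA2G4C, at distances from 1.23 to 1.98 log2 units. MARCHF4, a membrane-bound ubiquitin ligase, had 0 reads in untreated and Wdepl libraries and 273.8 and 287.9 scaled reads in Hdepl. CD274 (the immune checkpoint ligand PD-L1) had 37.2 and 31.8 in untreated, 2804 and 2424 in Hdepl and 14.9 and 20.1 in Wdepl. For LRP8 they were CTPS2, NHERF4 and ASIC1 (0.266 to 0.340), and for VLDLR SLC16A4, RILP and NWD2 (0.179 to 0.208). DAB1 was below the level at which a pattern could be compared.

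**Figure D5:**
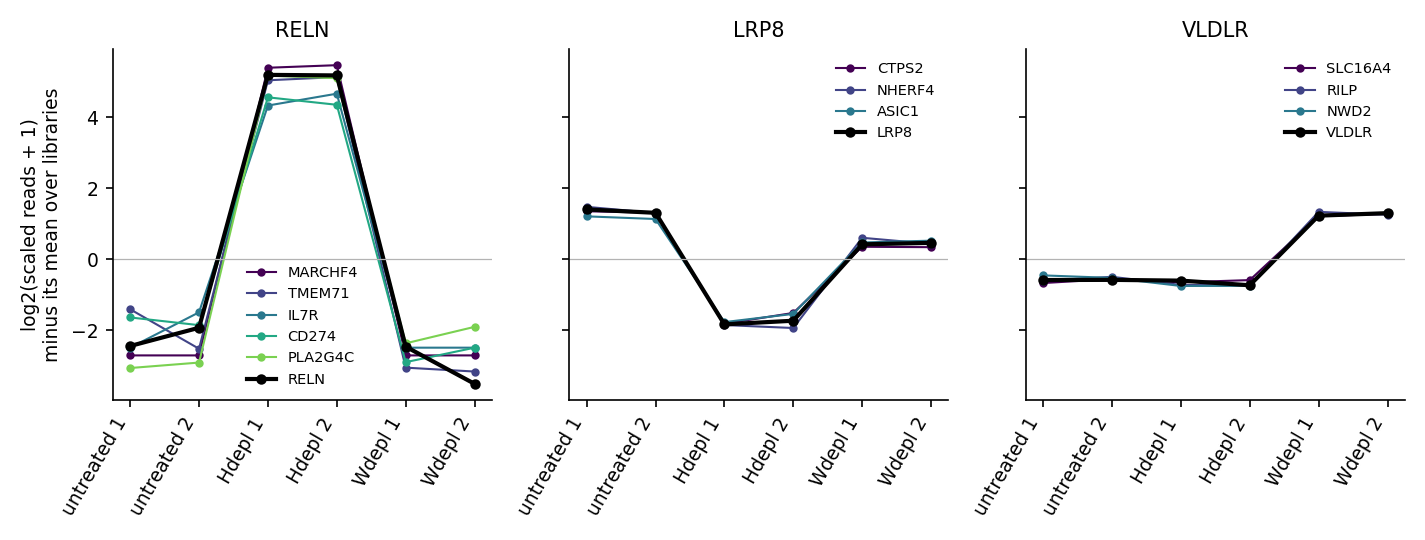
Centred log2(scaled reads + 1) in each of the 6 libraries for RELN, LRP8 and VLDLR (black) and the genes with the smallest distance to each (coloured). The profiles of RELN's nearest genes are highest in Hdepl, those near LRP8 dip most in Hdepl, and those near VLDLR are raised in Wdepl, as the choice by distance makes them.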

How the data were processed

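RNA-seq libraries of HT29 cells (TruSeq stranded mRNA kit, paired ends, adapters with molecular identifiers) were aligned by the authors with STAR 2.7.10a to GRCh38 and counted on exons with HTSeq 2.0.5, per the labels and the study's methods. The methods name exons of protein-coding genes, but the deposited tables list 60676 genes of all types, so how genes that code for no protein, such as VLDLR-AS1 and LRP8-DT, were counted is not given in the sources used here. The use of strand and of molecular identifiers in counting is not given in the sources used here. The deposited values are a signal that is never negative, namely gene counts divided by DESeq2 size factors, in 1 table per depletion, each with the same untreated libraries and normalized separately.

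In each library all values are multiples of a common step, the worth of 1 read, and division by it returned whole reads for 100% of values within a tolerance of 0.1 read. The untreated reads were identical from both tables. Scaled reads in the report are these reads divided by median-of-ratios size factors over all 6 libraries. Symbols, coordinates and exon lengths came from GENCODE release 44, a release other than the one the authors counted with, in which 60357 of 60676 identifiers were found, and promoter windows from RefSeq (GRCh38.p14). RELN, LRP8 and VLDLR each matched a promoter entry. Protein sequences were not used here.

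Comparisons with untreated were fitted within a table by limma 3.58.1 (R 4.3.3, two-sided, with a mean-variance trend) on log2(normalized count + 1), keeping genes whose mean reached 10, and Hdepl against Wdepl on the scaled reads, with Benjamini-Hochberg adjustment over all genes tested and a threshold of 0.05. The pseudocount makes changes of low genes look smaller than they are. The main test was limma because the deposited values are normalized. The recovered reads were tested with edgeR 4.0.16 (TMM) and DESeq2 1.42.0 as alternatives, beside other pseudocounts (0.5 and 8), filters at 50 and at none, quantile normalization, no trend, all 6 libraries in 1 fit, a replicate block, and each library left out. The code was tested on simulated data. Ratios of pooled reads have exact conditional binomial 95% intervals. Tables and plots were made with Python 3.11.15, pandas 2.3.3, numpy 2.4.6, scipy 1.17.1 and matplotlib 3.10.9.

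Named genes were the members, up to 2 genes of each pathway list with the largest change in Hdepl and over all lists the 3 largest in Wdepl (past the threshold, mean of at least 100 in the higher group, groups not overlapping), antisense and divergent genes named for a member, the 2 nearest protein-coding genes on each side of RELN, and the genes closest in pattern to each member. Some list genes are counted but not reported here by name. Further list genes are given where they show what a list held, chosen after their values were seen. The members and lists were chosen with earlier results of these data known.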

Additional observations from a re-analysis of the deposited data

Results flagged for a closer look

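VLDLR was picked out because the libraries of the 2 depletions lay on opposite sides of the untreated ones, with a log2 difference from untreated of -0.08 in Hdepl and 1.84 in Wdepl. That the groups lay on opposite sides was not tested as such, and on the Hdepl side the nearer Hdepl and untreated libraries were 358.7 and 359.2 normalized counts.

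The following genes were picked out because Hdepl and Wdepl differed in the direct limma comparison (adjusted p under 0.05), each value being the log2 difference of Hdepl from Wdepl. Among ligands, proteases and surface genes they were THBS1 at 2.87, APOE at 1.06, FURIN at -0.35, LRP1 at -3.06, EFNB2 at 1.66 and EFNB1 at -1.74. LRP1 and EFNB1 were lower than untreated in Hdepl and higher in Wdepl.

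Inside the cell they were SRC at -1.19, RAP1B at 1.29, PIK3R1 at -0.41, CDK5R1 at 2.62, PAFAH1B1 at 1.45, NR1H3 at -2.75, NR1H2 at 0.52, GULP1 at 0.29 and APPL1 at -0.95. Among DNA methyltransferases DNMT3B was at -1.65, DNMT3A at -1.27 and DNMT1 at 1.25, so that the de novo enzymes were lower in Hdepl and the maintenance enzyme lower in Wdepl. Of the genes beside a member, LRP8-DT was at -2.32, VLDLR-AS1 at -2.89 and PSMC2 at 0.65. The base medium also differed between the depletions and cannot be told apart from the missing amino acid.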

How the results depend on the processing

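The members were chosen on these values, so their values under the alternatives are a description and no support. VLDLR in Hdepl against untreated was at 0.138 under quantile normalization. All 168 alternative counts of genes and pathway genes stayed within 1.5 times the main count. The size of the RELN difference in Hdepl was 5.47 with a pseudocount of 8, 7.70 with 0.5, 7.94 in edgeR and 8.05 in DESeq2, and 7.12 to 7.63 with each library left out. Against Wdepl it ran from 5.63 to 9.70. Elsewhere the sign turned for YES1 under quantile normalization (-0.0372 in Hdepl against untreated, -0.121 against Wdepl) and in edgeR against Wdepl (-0.00594), for SLC16A4 in Hdepl, which lay near 0 throughout (edgeR -0.00724, DESeq2 -0.00465, all 6 libraries together -0.00478, libraries left out -0.0558 to 0.0643), and for APPL1 in Wdepl (-0.0993 to 0.00508 with libraries left out). Among the other named genes, 14 fits lost a call (for VLDLR-AS1 in Hdepl, YES1, NR1H3, ORC5, CD274 and PLA2G4C in Wdepl) and 2 gained one. The cause was not tested. Same-numbered libraries showed little shared deviation (correlations of 0.117, -0.0527 and -0.104 over 12480 genes). With 2 libraries per group this cannot tell whether same-numbered samples were handled together, and the labels do not say. With the replicate block, RELN in Hdepl was 7.38, LRP8 -3.13 and VLDLR -0.0751, and 7311 genes were higher and 7121 lower against 7149 and 6981 without it. In Wdepl the block left LRP8 at -0.922 and VLDLR at 1.84. The alternative scalings moved the median of all genes by -0.0267 to 0.00997. With 1 library left in a group, the fit assumes that it varies like the others. With 2 libraries per group, and counts of 0 to 2 reads on the low side, the RELN ratio has no firm upper limit.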
